A study of Mus musculus with 2 samples.

Results

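Mir191 and Mir425 are neighbouring microRNA (miRNA) hairpin genes on mouse chromosome 9, and they are the 2 genes described here out of 2202 annotated miRNA genes. They were chosen by name and position with their counts known: Mir191 is read on its own strand and is absent from the counts that ignore strand. The values of the strand columns are therefore a description, with no test. Small RNA under 30 nt was sequenced from left cerebral cortex tissue of female 5xFAD/CAST mice that were 8 to 10 months old. 5xFAD is a transgenic strain, with transgenes driven by a neuronal Thy1 promoter, in which the brain forms amyloid plaques. The 2 libraries, biological replicates 2 and 1, form 1 group, carry the same strain label and name the same donor entry, and no control group was analysed here. The labels do not state whether separate animals were used, so every difference between the libraries may be technical.

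A miRNA hairpin is cut from a longer transcript by Drosha, and its loop is cut off by Dicer. Either arm (5p or 3p) can be loaded into an Argonaute protein. The loaded strand finds target mRNAs mainly through its seed, bases 2 to 8. Mir191 and Mir425 are conserved as neighbours in mammals, and in humans they lie in an intron of DALRD3. In mouse hippocampal neurons, miR-191 has been linked to the spine changes of long-term depression, and in humans miR-425 is known to target the mRNA of the natriuretic peptide NPPA. Both miRNAs are often used as reference genes in RT-qPCR panels because they are found in many tissues.

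The hairpins and mature arms are shown because each hairpin is counted as a whole and because the seeds define the targets of each arm. All are on the plus strand of GRCm38 (mm10) chromosome 9, from RefSeq (GRCm38.p6). In the hairpins, capitals mark the mature arms.
Mir191, chr9:108568319-108568392: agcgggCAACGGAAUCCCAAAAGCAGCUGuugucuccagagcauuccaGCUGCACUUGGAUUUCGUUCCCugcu
Mir425, chr9:108568777-108568861: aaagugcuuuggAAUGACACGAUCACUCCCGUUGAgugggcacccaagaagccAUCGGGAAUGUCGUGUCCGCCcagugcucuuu

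In the mature arms, capitals mark the seed.
mmu-miR-191-5p: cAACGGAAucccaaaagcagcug
mmu-miR-191-3p: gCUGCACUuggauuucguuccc
mmu-miR-425-5p: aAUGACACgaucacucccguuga
mmu-miR-425-3p: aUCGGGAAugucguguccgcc

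The 4 arms have 4 different seeds, so the 2 hairpins belong to different seed families. Among 1738 mature miRNAs of the RefSeq table, no other one has the seed of either miR-191 arm or of miR-425-3p. The seed of miR-425-5p is shared with 1 other miRNA, miR-489-3p on chromosome 6, which is identical to miR-425-5p over its first 8 bases.
mmu-miR-489-3p: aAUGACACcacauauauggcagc
Mir489 (ENSMUSG00000070107.1) had 1 count in replicate 2 and 0 counts in replicate 1, where 0 counts allow a level of up to 0.710 CPM (counts scaled to a library total of 1000000). Of the 2 annotated sources of this seed, Mir425 was thus the one with counts in both cortex libraries. Its counts sum both arms, so they do not show how many reads carried the seed. The 2 hairpins, of 74 and 85 bases, both had a GC content of 54.1%, against a median of 50.8% over all 2202 miRNA genes.

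In GENCODE M21, the annotation behind the counts, neither hairpin lies inside Dalrd3. Mir191 (ENSMUSG00000105497.1) ends 1493 bases and Mir425 (ENSMUSG00000065579.1) 1024 bases before the first base of Dalrd3, a gene of the same strand. Both lie in the long non-coding gene 4833445I07Rik (108567533 to 108569174, plus strand), and 384 bases separate them. Its unspliced transcript holds both hairpins in its single exon. Its spliced transcript, of 2 exons, holds Mir191 in the intron and ends so that 2 bases separate it from Mir425. The RefSeq gene table of the same build draws Dalrd3 from 108567484 to 108572773, a span that includes both hairpins.

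**Figure D1:**
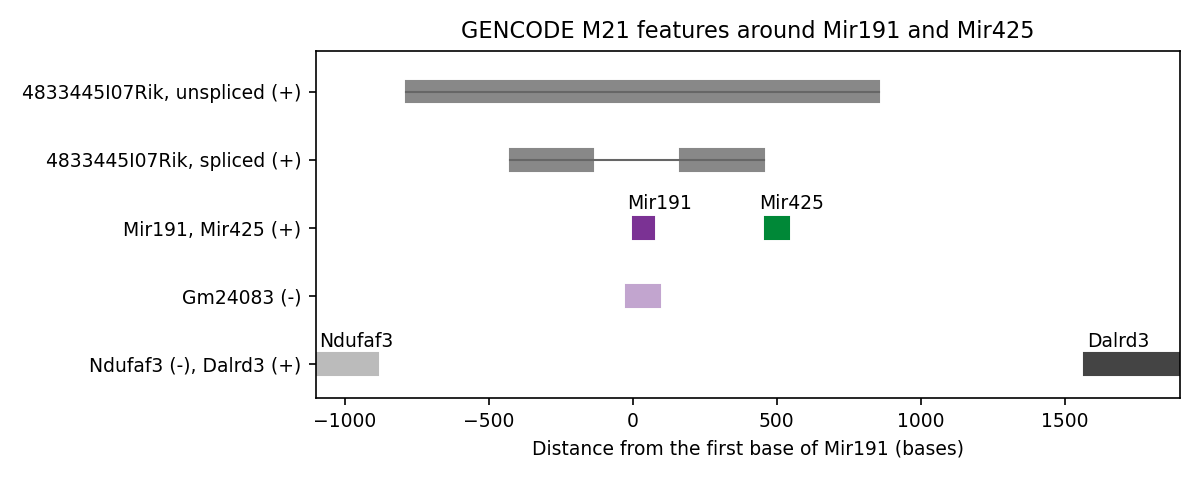
Features of GENCODE M21 around the 2 hairpins, plotted by distance from the first base of Mir191 in bases; boxes are exons or genes, the line is the intron, and the strand is given in brackets. Mir191 lies in the intron of the spliced 4833445I07Rik transcript and inside the span of Gm24083, and Mir425 lies beyond the end of that transcript; Ndufaf3 and Dalrd3 run past the edges of the plot.

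Mir191 was among the most abundant counted miRNA genes of the cortex. On its own strand it had 46302 counts in replicate 2 and 42015 in replicate 1, which is 8969 CPM (Wilson 95% interval 8888 to 9051) and 9941 CPM (9847 to 10036). The total behind a CPM value is that of all own-strand counts on miRNA genes, 5162369 in replicate 2 and 4226300 in replicate 1. Intervals are computed from the counts of 1 library each and cover counting error only. The reads carry no stated molecular identifiers, so copies of 1 molecule may be counted as separate reads. The mean was 9455 CPM ± 687 (SD, n = 2). It put Mir191 at rank 21 of 2202 genes, at rank 22 in replicate 2 and rank 20 in replicate 1. Reads mapping to several places, 6290303 in replicate 2 and 5244644 in replicate 1, are outside these counts and outnumber them. Genes encoded at several loci can thus rank too low beside Mir191.

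Mir425 was counted at a far lower level. Replicate 2 held 3131 of its reads and replicate 1 held 2956, which is 607 CPM (586 to 628) and 699 CPM (675 to 725). Its mean of 653 CPM ± 65.7 (SD, n = 2) stood at rank 110. The SD was 7.27% of the mean for Mir191 and 10.1% for Mir425. A row sums both arms, so the counts do not say which arm was read. A read covers about 1 mature arm, and the 4 arms are between 21 and 23 nt long, so the counts were not divided by length.

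Mir191 exceeded Mir425 by 14.8 times in replicate 2 and by 14.2 times in replicate 1. Mir425 thus gave 6.33% of the 49433 counts of the 2 hairpins in replicate 2 (Wilson 95% interval 6.12 to 6.55). In replicate 1 it gave 6.57% of 44971 counts (6.35 to 6.81). The intervals overlap, and this share does not depend on library size. Together the 2 hairpins took 1.01% ± 0.0753 (SD, n = 2) of all own-strand counts.

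The neighbours of Mir191 in the order of levels were not separated from it by the 2 libraries. Mir770, an imprinted hairpin in Meg3, stood at 10580 CPM ± 2843, Mir126a of endothelial cells at 10439 ± 3794 and Mir382 of the imprinted Dlk1-Dio3 cluster at 9468 ± 1307, all above Mir191 by their means. Below it stood Mir125a, a partner of let-7, at 9417 CPM ± 4062, and Mir23a at 8284 ± 2122 (SD, n = 2 each). The library values of these 5 genes overlapped those of Mir191. Mir383, next in the order at 7217 CPM ± 110, was the first whose 2 values (7140 and 7295 CPM in replicates 2 and 1) both lay below those of Mir191. The SD of Mir191 was the smallest of the 7 genes apart from that of Mir383.

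Around Mir425 the order was closer still. Mir532, Mir323 and Mir326, at means of 729, 702 and 660 CPM, preceded it, and Mir1981, Mir381 and Mir1843b, at 653, 615 and 609 CPM, followed. The library values of all 6 overlapped those of Mir425, so its rank among them is within the spread between libraries.

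**Figure D2:**
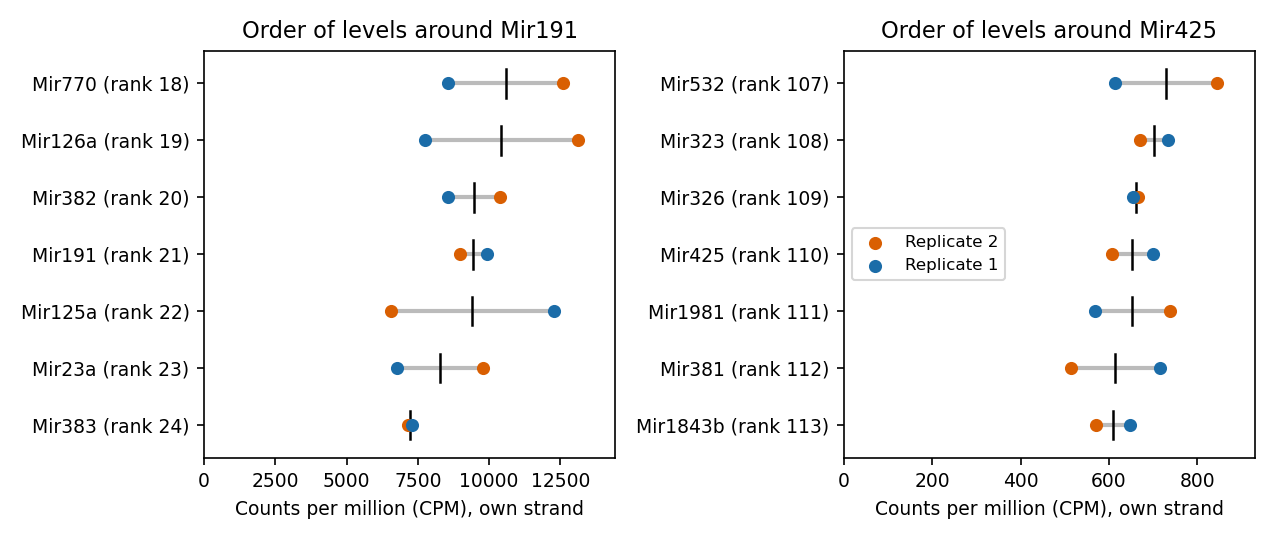
CPM on the own strand in replicate 2 (orange) and replicate 1 (blue) for Mir191 (left) and Mir425 (right) and the 3 genes above and below each in the order of mean CPM; black ticks are means and grey lines join the 2 libraries. Mir191 lies between 8969 and 9941 CPM and Mir425 between 607 and 699 CPM, and of the 12 neighbours Mir383 alone does not overlap its member.

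By Euclidean distance of log2(CPM + 1) over the 2 libraries, the genes with the most similar values to Mir191 were Mir382 (distance 0.30), Mir330 (0.34) and Mir29a (0.45). Those most similar to Mir425 were Mir1843b (0.14), Mir323 (0.16) and Mir326 (0.16). With 2 libraries this measure mostly restates the level. Mir330 had 11033 CPM in replicate 2 and 11192 CPM in replicate 1. Mir29a, known to target Bace1, had 10511 and 13028 CPM in these libraries.

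The strand columns gave different pictures of the 2 hairpins. In the column that ignores strand, Mir191 had 0 counts in replicate 2 and 0 in replicate 1, which is 0% of its own-strand counts. Mir425 kept 3131 and 2956 counts there, 100% of its own-strand counts in each library. With that column alone, Mir425 would be the only hairpin of the cluster with counts. Neither hairpin had a count on its opposite strand.

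Mir191 shares its locus with Gm24083 (ENSMUSG00000092915.1), a predicted miRNA gene of 120 bases on the minus strand. Its GENCODE sequence is shown because all 74 bases of Mir191 lie within it; capitals mark the complement of Mir191.
Gm24083, chr9:108568295-108568414, minus strand: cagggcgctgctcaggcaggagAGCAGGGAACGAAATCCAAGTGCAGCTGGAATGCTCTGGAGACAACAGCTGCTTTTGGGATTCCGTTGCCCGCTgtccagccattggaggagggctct

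Gm24083 had 0 counts on its own strand in replicate 2 and in replicate 1, which allows up to 0.581 and 0.710 CPM in these libraries. On the strand opposite to it, the tables list 46302 and 42015 counts, the same numbers that Mir191 has on its own strand. The strand opposite to Gm24083 is the strand of Mir191, so 1 set of reads is listed for both genes, and no read lay in the direction of Gm24083. Without strand, a read at this place falls on 2 genes, and such reads are listed in a row of ambiguous reads. That row held 363820 reads in replicate 2 and 284860 in replicate 1. The counts of Mir191 equal 12.7% and 14.7% of it.

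**Figure D3:**
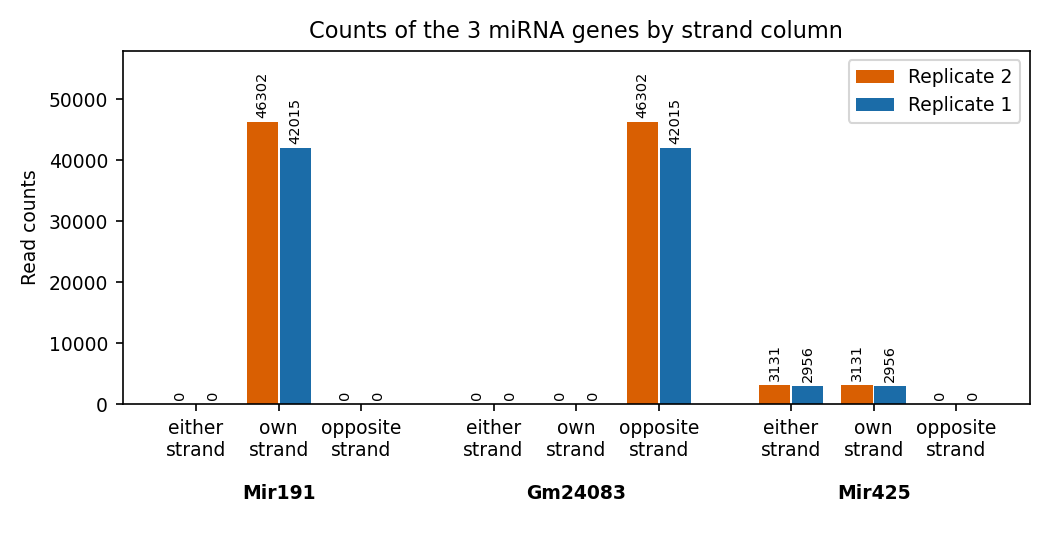
Read counts of Mir191, Gm24083 and Mir425 in the columns for either strand, the own strand and the opposite strand of each gene, in replicate 2 (orange) and replicate 1 (blue), with the count above each bar. Mir191 has all its counts on its own strand and 0 in the column for either strand, Gm24083 has the same numbers on its opposite strand, and Mir425 has equal counts in the columns for either strand and own strand.

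The same overlap occurs at other hairpins. In M21, 64 miRNA genes share bases with a miRNA gene on the opposite strand, and Mir191 had the third highest mean CPM of them. The 5 most abundant were Mirlet7e at 29708 CPM, Mir126a at 10439, Mir191 at 9455, Mir378a at 3937 and Mir219a-2 at 3287 CPM. Of the 64, 13 had 1000 own-strand counts or more in each library. All 13 kept under 1% of them in the column that ignores strand, and 11, Mir191 among them, kept 0. Mir425 is on the other side of this divide. It overlaps no miRNA gene, and none of the 137 equally counted genes without such an overlap had fewer counts without strand than on their own strand.

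Exact stretches of 18 bases shared with other annotated miRNA genes were searched for, and copies with mismatches were not. None of the 57 stretches of 18 bases in Mir191 and none of the 68 in Mir425 occurs in another miRNA gene in the same direction. In the complementary direction, Mir191 shares stretches with Gm24083 and Mir425 with no gene. Reads mapping to several places, 39.4% of reads in replicate 2 and 40.4% in replicate 1, are outside the counts; copies elsewhere in the genome were not searched.

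Between the libraries, both hairpins were lower in replicate 2, by similar amounts. The log2 ratio of replicate 2 to replicate 1, scaled by TMM, was -0.18 for Mir191 (exact 95% interval -0.20 to -0.16), a 1.13-fold difference. For Mir425 it was -0.24 (-0.31 to -0.16), a 1.18-fold difference. A two-sided exact binomial test of each gene's 2 counts, with Benjamini-Hochberg adjustment over 546 tested genes, gave an adjusted p of 4e-75 for Mir191. It gave 5.53e-10 for Mir425. Both were called lower in replicate 2, as were 34.2% of all tested genes, and 58.8% were called in either direction. The test compares these 2 libraries, not conditions, and allows for counting error alone.

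The size of these differences was small beside the other genes. Of the 204 tested genes that averaged at least 100 CPM, 26.5% had a smaller absolute log2 ratio than Mir191 and 32.8% a smaller one than Mir425. Their median fold was 1.29, and 87.7% of them were called. With an added biological coefficient of variation (BCV) of 0.1, edgeR's exact test called neither hairpin, with adjusted p-values of 0.576 for Mir191 and 0.424 for Mir425. The BCV estimated from the 2 libraries was 0.481 over the tested genes. Over the 90 genes with 10000 counts or more in the sum, Mir191 among them, it was 0.345. Both calls thus rest on counting error as the only source of spread.

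The 2 hairpins moved by nearly the same amount between the libraries, with log2 ratios 0.06 apart. Over 81 pairs of adjacent miRNA genes of 1 strand, with starts within 10000 bases and at least 100 counts for each gene, the median of this difference was 0.51. Of these pairs, 5 had a smaller difference than Mir191 and Mir425. They were Mirlet7c-2 with Mirlet7b, Mir3070a with Mir3070b, Mir29b-2 with Mir29c, Mir25 with Mir93 and Mir299a with Mir380, named after their values were seen. In level, Mir191 and Mir425 were further apart than the median pair, 14.5-fold (3.86 on the log2 scale) against a median of 8.00-fold, and 32 of the 81 pairs were further apart. Pairs share genes and libraries, so these ranks are a description.

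The 3 most abundant pairs behaved in different ways. Mirlet7c-2 and Mirlet7b, of the let-7 family, were 5.81 apart in log2 level and 0.0027 apart in their log2 ratios between libraries. Mir433 and Mir127, antisense to Rtl1 in the imprinted cluster, were 1.44 apart in level and 0.14 apart in ratio. Mirlet7d and Mirlet7f-1 were 7.49 apart in level and 0.30 apart in ratio. Let-7c and let-7f are encoded at several loci, so the counts of Mirlet7c-2 and Mirlet7f-1 are uncertain.

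**Figure D4:**
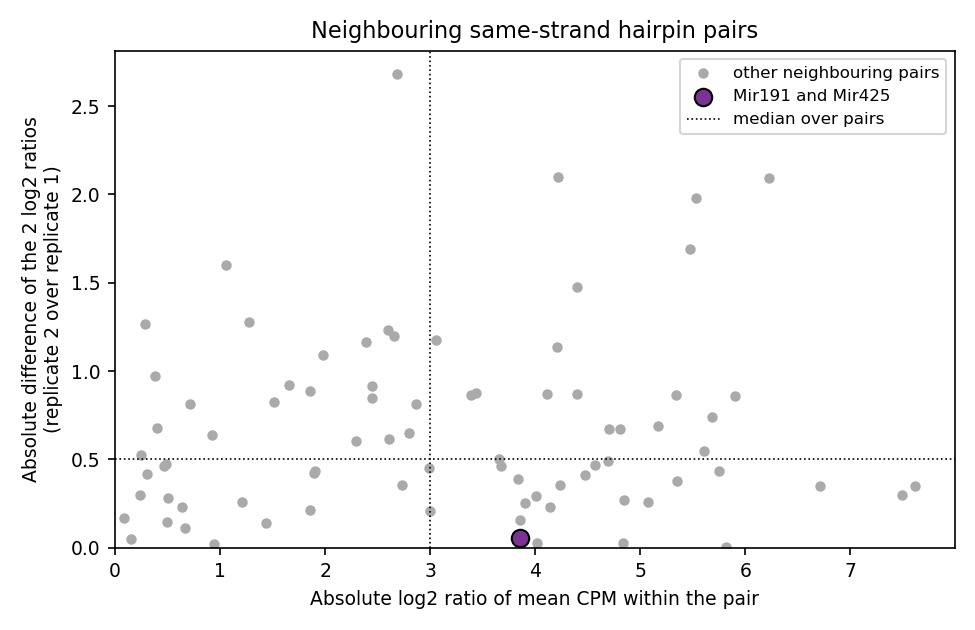
Each point is 1 of 81 pairs of adjacent same-strand miRNA genes, plotted by the absolute log2 ratio of the mean CPM of its 2 genes (x) and the absolute difference of their log2 ratios of replicate 2 to replicate 1 (y); dotted lines are medians. Mir191 and Mir425 lie at 3.86 and 0.06, to the right of the median level difference and near the bottom.

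Among 15 miRNA genes in use as RT-qPCR reference genes, a list that includes both hairpins, Mir191 had the highest mean CPM. The Mir16, Mir24 and Mir103 genes of this list are encoded at several loci, so they can rank too low beside it. The list had a median absolute log2 ratio of 0.44, against 0.50 over all 546 tested genes. The order of these medians depended on the setting. With DESeq2 size factors they were 0.506 and 0.505, and over genes with at least 100 counts 0.47 and 0.44. Over the 204 tested genes averaging at least 100 CPM, the median was 0.37. Of the 15 list members, 5 were called higher and 8 lower in replicate 2, where 24.5% and 34.2% of all tested genes were called. Calls were more frequent at high counts. Of the 204 tested genes averaging at least 100 CPM, 87.7% were called in either direction, though some list members lie below that level. By edgeR's exact test at a BCV of 0.1, 7 of the 15 were called, and 28.8% of all tested genes.

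Several members of the list moved more than the 2 hairpins. Mir423 had 1064 CPM in replicate 2 and 1952 CPM in replicate 1, a log2 ratio of -0.91. Mir361, in an intron of Chm, had 6497 and 4188 CPM in replicates 2 and 1 (0.60), and Mir320 had 5651 and 3589 CPM (0.62). Mir16-1, in Dleu2, had 523 and 264 CPM (0.96), while Mir16-2, in Smc4, had 75.7 and 89.4 CPM (-0.27). By their point values these 5 differences exceed those of Mir191 and Mir425 in size, and they run in both directions. The interval of Mir16-2 (-0.48 to -0.06) includes the ratios of both hairpins.

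By point value at TMM scaling, Mir484, Mir93 and Mir25 had ratios smaller in size than Mir425. Those of Mir93 and Mir25 were also smaller than that of Mir191. DESeq2 size factors shifted all ratios upward, that of Mir191 to -0.12, so the order of Mir93, Mir25 and the hairpins depends on the scaling. The interval of Mir484 (-0.26 to -0.15) includes the ratios of both hairpins. That of Mir25 (-0.20 to 0.37) includes the ratio of Mir191. Mir484 had 1217 CPM in replicate 2 and 1374 CPM in replicate 1 (log2 ratio -0.21). Mir93 had 1336 and 1214 CPM (0.11) and Mir25, its neighbour in Mcm7, 46.5 and 43.1 CPM (0.08). Mir186, in Zranb2, had 118 and 146 CPM (-0.34). Mir24-1 and Mir24-2, at -1.77 and -0.76, and Mir103-1 and Mir103-2, in Pank genes, at 0.44 and 0.88, are encoded at 2 loci each, so their counts are uncertain, as are those of the Mir16 genes. Mir25 and Mir103-1 did not pass the binomial test.

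**Figure D5:**
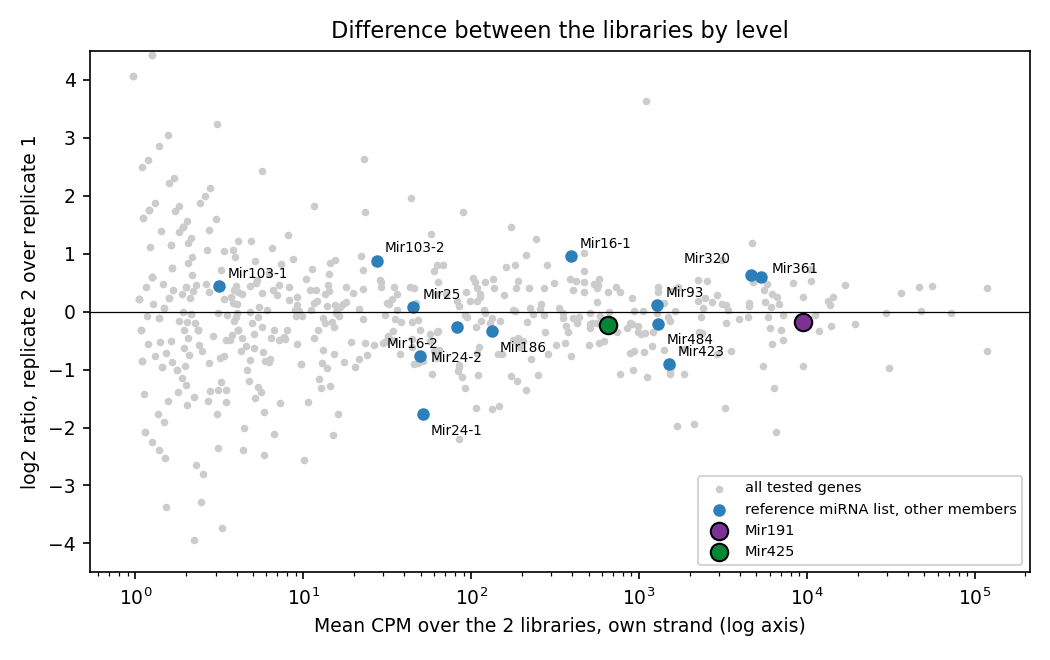
Log2 ratio of replicate 2 to replicate 1 (y) against mean CPM on a log axis (x) for the tested genes (grey), the other members of the reference miRNA list (blue), Mir191 (purple) and Mir425 (green); 11 genes lie outside the y range drawn. Mir191 at -0.18 and Mir425 at -0.24 lie just below 0, and Mir423, Mir16-1, Mir320 and Mir361 lie further from it.

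The summed levels of marker miRNAs differed between the libraries, and 1 or 2 genes carried most of each difference. The 4 blood markers summed to 890 CPM in replicate 2 and 80.0 CPM in replicate 1. Most of this was the erythroid Mir451a, at 821 and 30.0 CPM; Mir144 was also higher in replicate 2, while Mir486 (26.0 and 36.2 CPM) and Mir223 (3.10 and 7.57 CPM) were lower there. The 4 markers of microglia and leukocytes summed to 2036 CPM in replicate 2 and 2673 CPM in replicate 1. Of these, Mir146 and Mir150 were lower in replicate 2, and Mir142 (104 and 80.9 CPM) and Mir155 (181 and 173 CPM) were higher.

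All 14 cortical neuron markers had counts in at least 1 library, 13 of them in both. They summed to 40839 CPM in replicate 2 and 65964 CPM in replicate 1, a gap that lay mostly in the activity-induced Mir132 (21189 and 40577 CPM) and in Mir128-1 (3687 and 9000 CPM). The markers did not share a direction. A higher CPM in replicate 2 was found for 6, among them Mir138-1 (4820 and 4244 CPM). A lower one was found for 8, among them Mir137 (5769 and 6008 CPM). The Mir124a, Mir9, Mir128, Mir138 and Mir129 genes are encoded at several loci each, so their counts, the sums and these directions are uncertain. Some rest on few counts, such as Mir124a-2 with 6 counts in replicate 2 and 0 in replicate 1. Of the 6 muscle and heart markers, Mir133a-1, Mir133a-2 and Mir1a-1 were at 0 in both libraries. The sum of the 6 was 0.581 CPM in replicate 2 and 4.97 CPM in replicate 1. The Mir1a and Mir133a genes are also encoded at several loci, so their counts and this sum are uncertain. Their 0 counts do not show absence. The liver marker Mir122 had 86.6 and 48.5 CPM. The part of these cells in the difference of Mir191 and Mir425 was not tested, and in tissue RNA fewer cells of a type and less RNA per cell cannot be told apart.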

How the data were processed

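Small RNA of 2 libraries was analysed from the authors' deposited tables of raw read counts for each miRNA gene, on mm10 with GENCODE M21, per the records deposited with the files. For the aligner, counter and trimming, names and versions were not given in the sources used here. Columns for either strand, own strand and opposite strand were told apart by their totals. The 4 rows that name no gene, 67.6% of 15950006 reads in replicate 2 and 67.4% of 12978140 in replicate 1, stayed out of totals and tests. All 2202 IDs matched M21.

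With 1 group of 2 libraries, no quasi-likelihood test between groups could be made. Genes whose 2 counts summed to 10 or more were tested with an exact binomial test (scipy 1.17.1) at TMM-scaled sizes (edgeR 4.0.16), Benjamini-Hochberg adjustment over all of them and calls at 0.05; ratios have 0.5 counts added. The test was tried on simulated data with counting error only, so the trial does not cover spread between libraries. Alternatives were DESeq2 1.42.0 size factors, total counts, the column that ignores strand, other filters and a fixed BCV of 0.1. Sequences were read from RefSeq (GRCm38.p6) and GENCODE tables.

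Named genes were the 2 hairpins, genes overlapping them or sharing a seed, the 3 genes above and below each in level, the 3 nearest in values, the reference list, the 3 most abundant neighbouring pairs and the 5 most abundant genes with an antisense overlap. The members and lists were chosen with earlier results of these data known.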

Additional observations from a re-analysis of the deposited data

How the results depend on the processing

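With all reads as the denominator, Mir191 stood at 3070 and Mir425 at 212 CPM, and without the 10 most abundant genes at 22143 and 1529 CPM. In the column that ignores strand, Mir191 stood at 0 CPM, so its ratio between libraries could not be given, and Mir425 took 100% of the counts of the 2 hairpins. Leaving out each library gave 8969 to 9941 CPM for Mir191, 607 to 699 CPM for Mir425, 6.33% to 6.57% for the share of Mir425, and 0% and 100% for the counts that Mir191 and Mir425 keep without strand, which with 2 libraries is each library's own value. At a fixed BCV of 0.1, edgeR's exact test called 157 genes in place of 321 and 7 list members in place of 13, and the log2 ratios of Mir191 (-0.18, adjusted p 0.576) and Mir425 (-0.24, adjusted p 0.424) were not called, since that test adds spread between libraries to counting error. Under DESeq2 size factors, total counts and the filters at 1 and 100 counts, both ratios kept their sign and their call, at -0.12 to -0.15 for Mir191 and -0.17 to -0.21 for Mir425. Of pairs with starts within 1000 bases, 4 of 54 had a smaller difference of ratios than the 2 hairpins, and of pairs with 1000 counts per gene, 2 of 43. No paired analysis was possible because the 2 libraries form 1 group. At these depths counting error is small for both hairpins, and the spread between animals is unknown.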
